A study of Mus musculus with 149 samples.

Results

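The collagen genes of the lung were followed here across naive and OVA-sensitized mice. They were taken by symbol: every gene named Col, a number, the letter a and a number, with Lox, the Lox-like genes and Postn. Of 13494 genes with a named probe set, 39 met this rule, each represented by its brightest probe set, and none was removed for low signal. They comprise 8 chains of fibrillar collagens, 7 fibril-associated chains, 6 chains of the basement membrane network (collagen IV), 4 beaded-filament chains (collagen VI), 2 multiplexins, 2 short-chain network genes, 4 transmembrane collagens, the anchoring-fibril chain Col7a1, 4 lysyl oxidases and periostin (Postn). Loxl2 and 10 further collagen genes, among them Col11a1 and Col10a1, were not analysed here.

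Whole lungs of BALB/c mice were measured on Affymetrix arrays, 1 per animal, in a study of what a challenge with thymic stromal lymphopoietin (TSLP) does to airway inflammation. Each animal was either sensitized with ovalbumin (OVA) or naive. Challenges were saline, buffer alone (labelled 0.1% MSA), or TSLP at 150, 500 or 1500 ng, and lungs were taken after 6 or 24 h. The design text gives 8 animals per combination, the 20 groups here held 6 to 8, and the labels name no age, sex or sensitization scheme. TSLP is a cytokine released by airway epithelium, and OVA sensitization followed by airway exposure is a standard mouse model of allergic airway inflammation.

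Collagens are built from chains wound into a helix. Fibrillar collagens I, III and V form the tensile fibres of airway walls and vessels, collagen IV forms the sheet beneath epithelium and endothelium, and collagen VI forms beaded filaments that link cells to the matrix. Lysyl oxidases cross-link collagen and elastin, and periostin binds collagen and is known as a marker of type 2 airway inflammation. Airway remodelling in asthma includes deposition of collagen beneath the epithelium.

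Expression is given on the log2 scale, as the authors deposited it after RMA. A difference of 1 is a doubling. Values of different genes come from different probes, so percentiles of all genes are a rough guide to signal and not a measure of RNA amount. Differences were tested with limma over all arrays, and a gene is said to have risen or fallen where its p adjusted over all 13494 genes was under 0.05. In whole lung, fewer cells of a type and less RNA per cell cannot be told apart.

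Several arrays stood apart. The lung epithelial markers Sftpc, Sftpb, Scgb1a1 and Ager lay above the 99th percentile of all genes, Aqp5 at the 97th and the ciliated-cell gene Foxj1 at the 28th. In 5 arrays the mean of the 4 measured markers of alternatively activated macrophages (Chil3, Chil4, Mmp12 and Mrc1) lay nearer the median of the other sensitization than that of their own. These were the libraries labelled OVA buffer 6 h replicate 3, naive 500 ng TSLP 6 h replicate 8, OVA 500 ng TSLP 6 h replicate 3, and OVA buffer 24 h replicates 2 and 5. Naive saline 24 h replicate 1 stood apart from its group in 8 of 18 collagen genes examined one by one. Whether any of these arrays were exchanged or mislabelled was not tested, and every OVA minus naive difference rests on the labels as given. Col6a2, for example, was 12.91 in OVA 500 ng TSLP 6 h replicate 3, the lowest of that group, and 13.23 in naive 500 ng TSLP 6 h replicate 8, the highest of that group. Results were also computed without these 6 arrays. The naive saline array was chosen by its collagen values, so collagen differences that widen without it are no independent support. The other 5 were chosen by markers that differ between OVA and naive lungs. Leaving them out can itself widen OVA minus naive differences, so such results are no independent support either. A separate set of results left out 6 arrays that carried the gullet keratins Krt4 and Krt13. The log2 difference between the 3' and 5' beta-actin control probe sets, which grows as RNA degrades or labelling shortens, averaged 2.45 in OVA and 2.42 in naive saline lungs at 6 h, and 1.27 in OVA and 1.37 in naive saline lungs at 24 h. Results were therefore also computed with this difference as a covariate.

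Col4a1 with Col4a2 and Col6a1 with Col6a2 are neighbours in the genome that recur in the results, and their promoter windows are shown for that reason. Col4a1 and Col4a2 encode the most widespread collagen IV chains and are transcribed away from each other. Their windows on mouse chromosome 8, chr8:11312777-11313076 on the minus strand for Col4a1 and chr8:11312555-11312854 on the plus strand for Col4a2, overlap by 78 bases. Col6a1 and Col6a2 encode collagen VI chains and lie 85161 bases apart on chromosome 10, both on the minus strand. Their windows are chr10:76725995-76726294 for Col6a1 and chr10:76623581-76623880 for the outer start of Col6a2. Each sequence is from RefSeq (GRCm38.p6) and runs 5′ to 3′ on the gene's strand over 250 bases before and 50 after the annotated start. Capitals mark CCAAT or GGGCGG on either strand.
Col4a1: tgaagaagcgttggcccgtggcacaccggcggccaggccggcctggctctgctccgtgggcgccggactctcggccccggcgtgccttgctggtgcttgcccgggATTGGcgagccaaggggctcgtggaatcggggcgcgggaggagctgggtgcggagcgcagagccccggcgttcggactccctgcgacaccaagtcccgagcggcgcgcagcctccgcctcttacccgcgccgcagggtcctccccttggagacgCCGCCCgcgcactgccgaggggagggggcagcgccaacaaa
Col4a2: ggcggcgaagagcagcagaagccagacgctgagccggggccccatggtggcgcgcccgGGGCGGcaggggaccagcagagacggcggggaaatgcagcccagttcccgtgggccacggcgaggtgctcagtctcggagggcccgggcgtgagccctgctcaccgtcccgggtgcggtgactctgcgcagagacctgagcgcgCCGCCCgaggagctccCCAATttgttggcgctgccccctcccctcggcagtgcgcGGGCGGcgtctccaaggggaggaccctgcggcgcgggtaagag
Col6a1: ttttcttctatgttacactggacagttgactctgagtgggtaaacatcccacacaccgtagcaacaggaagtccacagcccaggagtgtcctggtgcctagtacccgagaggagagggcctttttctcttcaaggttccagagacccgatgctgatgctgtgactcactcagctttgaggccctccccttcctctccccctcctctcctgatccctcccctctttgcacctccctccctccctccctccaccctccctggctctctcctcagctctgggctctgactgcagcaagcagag
Col6a2: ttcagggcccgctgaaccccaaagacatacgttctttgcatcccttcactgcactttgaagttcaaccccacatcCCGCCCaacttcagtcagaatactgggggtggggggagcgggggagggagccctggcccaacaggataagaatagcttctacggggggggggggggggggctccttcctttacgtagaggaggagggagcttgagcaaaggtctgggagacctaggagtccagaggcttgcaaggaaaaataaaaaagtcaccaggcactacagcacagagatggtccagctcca

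The 28 members with a promoter entry used here had 32 windows, since 4 genes have 2 annotated starts. Windows on chromosome 18, where Lox lies, were not taken for the members. This exclusion was not applied to the count of all windows. CCAAT was in 13 of the 32 windows (40.6%) and GGGCGG in 19 (59.4%), against 37.4% and 35.7% of all 32851 windows in the table. TATAAA was in 4 of the 32 (12.5%), against 13.6% of all windows. TTC and GAA separated by 3 or by 4 bases, the spacings of the STAT motif, were searched on both strands and were in none of the 32 and in 8.3% and 7.0% of all windows. Col4a1 and Col4a2 both held CCAAT and GGGCGG. The Col6a1 window held none of the 5 motifs, and the Col6a2 window shown held GGGCGG once. The window of the inner Col6a2 start, chr10:76623355-76623654, held GGGCGG 3 times, 2 of them overlapping.

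The first comparison set OVA-sensitized lungs against naive lungs, with no TSLP given. The labels name no sensitization scheme, so sensitization cannot be told apart from other differences in how the OVA and naive animals were handled. In OVA lungs at 24 h after saline, collagen VI chains, Col15a1, Col8a1, Col3a1 and Col5a2 were higher than in naive lungs. The fibril-associated Col12a1, the alveolar basement membrane chains Col4a3 and Col4a4, and the transmembrane collagens Col13a1, Col17a1 and Col23a1 were lower. In all, 9 members rose and 8 fell, 43.6% of the 39, while 30.3% of all genes were called in that comparison. The median difference was -0.02 over the members and -0.03 over all genes. With the beta-actin covariate 9 rose and 8 fell (33.4% of all genes called), and 18 were called without the 6 arrays that stood apart (30.0%).

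**Figure D1:**
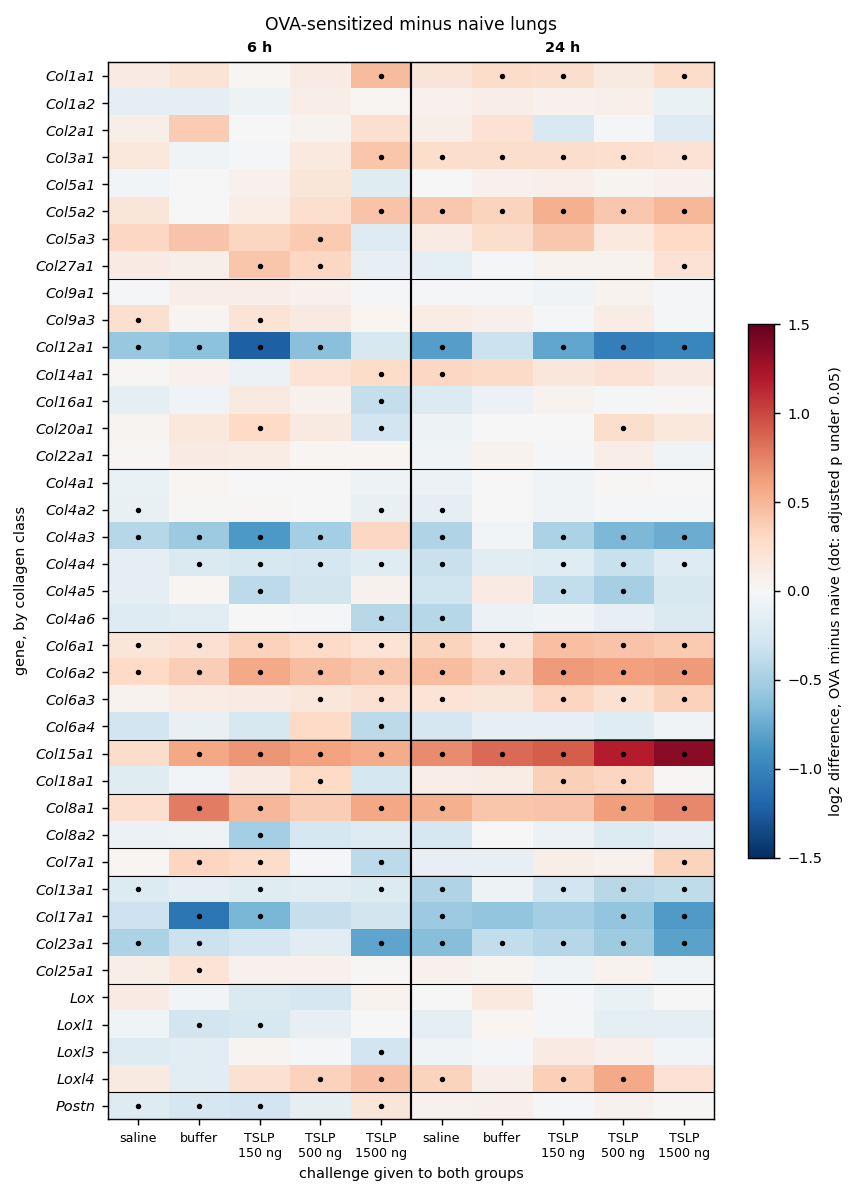
Heat map of the log2 difference, OVA minus naive, for the 39 collagen genes (rows, grouped by class and separated by lines) under 5 challenges at 6 h (left) and 24 h (right). Dots mark adjusted p under 0.05 by limma. Col6a1 and Col6a2 are red with a dot in all 10 columns, and Col15a1 in 9.

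Among the members, collagen VI gave the most regular difference. Col6a2 ran 13.03, 13.27 and 13.35 (lowest, median and highest) in OVA saline lungs at 24 h, against 12.64, 12.76 and 13.01 in naive saline lungs. No OVA array overlapped a naive one, and the difference was 0.47 (SE 0.07, adjusted p = 1.69e-07), seen in 7 of 7 OVA arrays. Col6a1, its partner chain, ran 12.91, 13.13 and 13.14 in OVA saline lungs at 24 h, against 12.71, 12.72 and 12.85 in naive lungs. These groups were also fully separate, with a difference of 0.33 (SE 0.05, adjusted p = 4.6e-07). Col6a3, the long chain of the same trimer, ran 11.88, 12.04 and 12.16 in OVA and 11.71, 11.81 and 12.02 in naive lungs. Its groups overlapped, with a difference of 0.21 (SE 0.07, adjusted p = 0.0152). Col6a4, which encodes another collagen VI chain, was called after saline at neither time.

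Col6a1 and Col6a2 were higher in OVA lungs in all 10 pairs of groups, that is under each of the 5 challenges at both times. Their differences ran from 0.18 to 0.45 for Col6a1 and from 0.30 to 0.64 for Col6a2. All 10 calls of each gene were also made with the beta-actin covariate. They were made without the arrays that stood apart too, which is no independent support given how those arrays were chosen. With the compared groups alone, run for the 4 pairs without TSLP, Col6a2 was called in 4 and Col6a1 in 2. The groups did not overlap in 6 of the 10 pairs for Col6a1 and in 7 for Col6a2. The other Col6a2 probe set followed the chosen one with a correlation of 0.99 over the arrays. Col6a3 was called higher in 6 of the 10, and no other member was called in all 10. Single pairs called 8.57% to 46.0% of all genes. How many of all genes were called, or did not overlap, across several or all 10 pairs was not counted.

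Col15a1, a multiplexin of vascular and muscle basement membrane zones, was higher in OVA lungs in 9 of the 10 pairs, and in 6 with the beta-actin covariate. It ran 9.84, 10.63 and 11.23 in OVA saline lungs at 24 h, against 9.63, 9.82 and 10.14 in naive lungs. The groups overlapped, and the difference was 0.71 (SE 0.23, adjusted p = 0.0114). In buffer lungs at 24 h it ran 9.85, 10.37 and 12.50 in OVA and 9.51, 9.63 and 10.17 in naive animals. The highest of these is replicate 2 of the OVA buffer group, one of the arrays that stood apart. The difference there was 0.85 (SE 0.23, adjusted p = 0.0096), and 0.64 (adjusted p = 0.0452) without such arrays. In buffer lungs at 6 h it was 0.58 (SE 0.24, adjusted p = 0.0491) and did not pass without them, 0.43 (adjusted p = 0.124). After saline at 6 h Col15a1 did not pass, with 10.25, 10.82 and 11.04 in OVA and 9.72, 10.32 and 11.69 in naive lungs. Col18a1, the other multiplexin and the source of endostatin, was called in none of the 4 saline and buffer pairs.

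Among fibrillar chains, Col3a1 and Col5a2 were higher in 6 of the 10 pairs each and Col1a2 passed in none. Col5a2, a chain of the fibre-nucleating collagen V, ran 11.42, 11.77 and 11.96 in OVA saline lungs at 24 h and 11.17, 11.25 and 11.86 in naive lungs. The highest naive value is the naive array that stood apart. The difference was 0.41 (SE 0.11, adjusted p = 0.00209) with it included. Col3a1, the chain of collagen III, ran 13.11, 13.29 and 13.44 in OVA and 12.94, 13.03 and 13.30 in naive saline lungs at 24 h. Here too the groups overlapped through that naive array, and the difference was 0.26 (SE 0.08, adjusted p = 0.00677). In buffer lungs at 24 h Col3a1 differed by 0.26 (SE 0.08, adjusted p = 0.023). Col1a1, the main chain of collagen I, ran 12.55, 12.80 and 13.06 in OVA buffer lungs at 24 h, against 12.31, 12.54 and 12.63 in naive buffer lungs. The groups overlapped, and that difference of 0.28 (SE 0.09, adjusted p = 0.0262) passed. The saline pair at 24 h did not pass, with means of 12.80 in OVA and 12.61 in naive lungs. Col1a2 averaged 13.21 in OVA and 13.15 in naive saline lungs at 24 h. Col14a1, which binds the surface of fibrils, differed by 0.31 (SE 0.11, adjusted p = 0.0196) after saline at 24 h. It was not called with the mean of all probe sets, and its other probe sets correlated with the chosen one at 0.51 and 0.18.

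**Figure D2:**
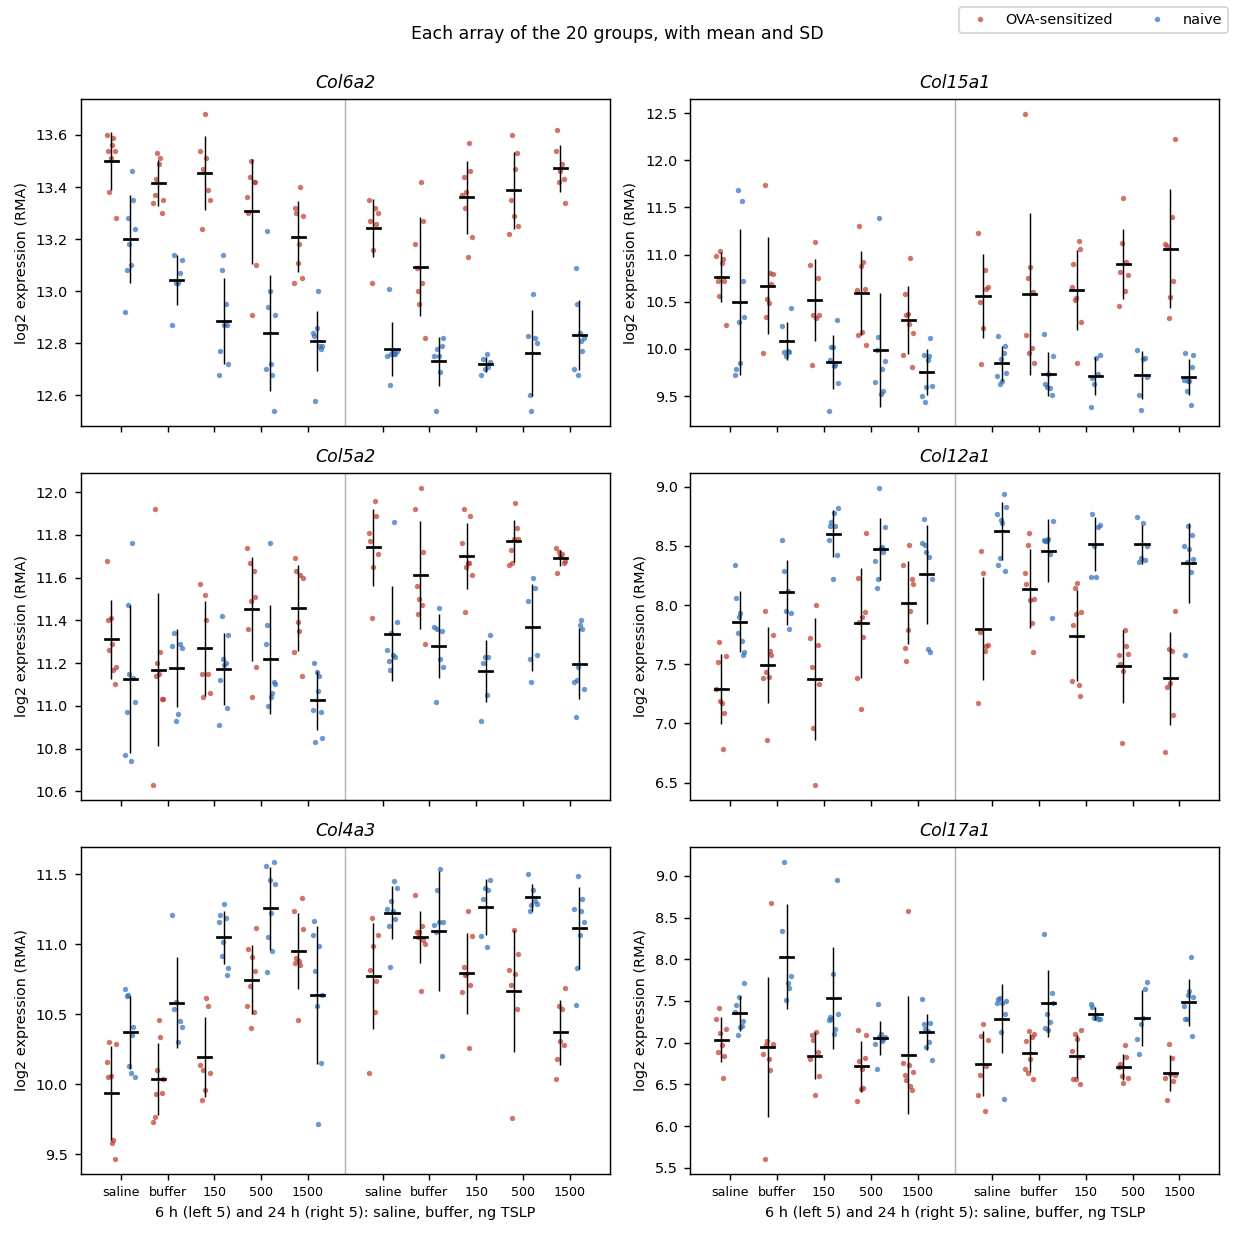
Log2 expression (RMA) of 6 collagen genes in every array, OVA-sensitized (red) left of naive (blue) in every pair, by challenge at 6 h and 24 h; bars give the group mean and SD. Col6a2 is higher in OVA lungs throughout, Col12a1 lower, and Col4a3 lower by mean in all but the 1500 ng pair at 6 h.

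Members that fell included fibril-surface, alveolar and transmembrane collagens. Col12a1, which coats fibrils of collagen I, was lower in OVA lungs in 8 of 10 pairs. It ran 7.17, 7.66 and 8.46 in OVA saline lungs at 24 h and 8.29, 8.71 and 8.94 in naive lungs. Of the 7 OVA arrays, 6 lay below every naive one, and the difference was -0.82 (SE 0.17, adjusted p = 7.08e-05), a 1.77-fold lower value. Its other probe set correlated with the chosen one at 0.27. Col23a1, a transmembrane collagen, was lower in 8 of 10 pairs, with 9.11, 9.58 and 9.84 in OVA and 9.73, 10.27 and 10.40 in naive saline lungs at 24 h. These ranges overlapped slightly, and the difference was -0.64 (SE 0.12, adjusted p = 1.14e-05). Col13a1, a transmembrane collagen of cell adhesion sites, ran 9.83, 10.17 and 10.55 in OVA and 10.59, 10.66 and 10.83 in naive saline lungs at 24 h. The groups were fully separate, with a difference of -0.46 (SE 0.08, adjusted p = 2.08e-06).

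Col4a3 and Col4a4 encode chains of the specialised collagen IV network of alveoli and kidney glomeruli, and lie head to head on mouse chromosome 1 (chr1:82586921-82722059 for Col4a3 and chr1:82448419-82587034 for Col4a4, GRCm38.p6). Col4a3 ran 10.08, 10.82 and 11.19 in OVA saline lungs at 24 h, against 10.84, 11.25 and 11.45 in naive lungs. The ranges overlapped, and the difference was -0.45 (SE 0.15, adjusted p = 0.0169). At 6 h the saline pair differed by -0.43 (SE 0.15, adjusted p = 0.0234). Col4a4 ran 11.46, 11.99 and 12.16 in OVA and 12.17, 12.27 and 12.34 in naive saline lungs at 24 h. Every OVA value lay below every naive one, with a difference of -0.33 (SE 0.07, adjusted p = 2.89e-05). Both genes were called lower in 8 of the 10 pairs. Col4a1 was called in none, and its saline 24 h means were 13.54 in OVA and 13.64 in naive lungs. Col4a2, its partner, ran 13.47, 13.51 and 13.56 in OVA and 13.59, 13.62 and 13.83 in naive lungs. The Col4a2 groups did not overlap, and the difference was small, -0.13 (SE 0.05, adjusted p = 0.0208).

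Col17a1, a hemidesmosome collagen that anchors basal epithelial cells, differed by -0.54 (SE 0.21, adjusted p = 0.0351) between OVA and naive saline lungs at 24 h. In buffer lungs at 6 h it ran 5.61, 6.91 and 8.68 in OVA and 7.51, 7.76 and 9.17 in naive animals, a difference of -1.09 (SE 0.22, adjusted p = 4.2e-05). The highest OVA array there, replicate 7, carried the gullet keratins, as did 2 of the 6 naive arrays. Without the gullet arrays the difference was -0.97 (adjusted p = 5.93e-06). Col17a1 is a gene of squamous epithelium, and the part of gullet tissue in the result was not tested beyond that.

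Col8a1, a short-chain collagen of vessel walls, was higher in OVA lungs in 6 of 10 pairs. After saline at 24 h it ran 9.38, 9.78 and 10.06 in OVA and 8.88, 9.12 and 10.35 in naive lungs. The ranges overlapped, and the difference was 0.53 (SE 0.17, adjusted p = 0.0112). Of the cross-linking enzymes, Loxl4 differed by 0.34 (SE 0.11, adjusted p = 0.0169) after saline at 24 h. Lox was called in none of the 10 pairs, and its saline 24 h means were 11.31 in OVA and 11.32 in naive lungs. Loxl1, needed to maintain elastic fibres, was lower in OVA buffer lungs at 6 h, -0.27 (SE 0.10, adjusted p = 0.0303). That Loxl1 call was lost with the beta-actin covariate (adjusted p = 0.0648), without the gullet arrays (adjusted p = 0.144) and with the compared groups alone (adjusted p = 0.214). Postn was lower in OVA lungs after saline at 6 h, -0.19 (SE 0.07, adjusted p = 0.0274), and did not pass after saline at 24 h, with means of 12.68 in OVA and 12.62 in naive lungs. Col2a1, the main collagen of cartilage, was called in none of the 24 planned comparisons, and its mean level lay at the 8.2 percentile of all genes.

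The other pairs without TSLP gave fewer calls. After saline at 6 h, 3 members rose (Col6a2, Col9a3 and Col6a1) and 6 fell, 23.1% of the 39 against 23.5% of all genes. After buffer at 6 h, 6 rose and 7 fell, 33.3% of the 39 against 33.6% of all genes. The beta-actin difference was 0.44 higher in the OVA group of that pair, and with it as a covariate 4 rose and 6 fell (23.8% of all genes called). Col15a1, Col25a1, Col12a1, Postn and Loxl1 were among the calls lost there. After buffer at 24 h, 6 rose (Col15a1, Col6a2, Col5a2, Col1a1, Col3a1 and Col6a1) and 1 fell (Col23a1), 17.9% of the 39 against 8.57% of all genes. The OVA effect at 24 h minus that at 6 h in saline lungs was called for none of the 39, with 0.0222% of all genes called. In buffer lungs it was called for 2, with 2.9% of all genes called. They were Postn, 0.32 (SE 0.10, adjusted p = 0.0477), and Col7a1, -0.44 (SE 0.13, adjusted p = 0.0437). Neither passed with the beta-actin covariate.

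Contrasts between OVA and naive lungs under TSLP were added after the data were seen. Over all 10 pairs, 15 members were called higher in OVA lungs at least once and never lower. Another 14 were called lower at least once and never higher, 3 were called both ways (Col7a1, Col20a1 and Postn), and 7 were never called. In single pairs 8.57% to 46.0% of all genes were called. The share of all genes called at least once was not computed, so these counts are not set against it. In the 6 TSLP pairs the members called numbered 17 and 15 at 150 ng (6 and 24 h), 11 and 17 at 500 ng, and 21 and 16 at 1500 ng. The shares of all genes called were 46.0% and 32.5% at 150 ng, 32.0% and 32.8% at 500 ng, and 44.2% and 42.5% at 1500 ng. The beta-actin difference was 0.64 higher in the OVA group at 150 ng and 6 h and 0.35 higher at 500 ng and 6 h. At 1500 ng and 6 h it was lower in the OVA group (-0.35). With it as a covariate the 6 h counts were 11 members (2 up, 9 down) at 150 ng, 7 (3 up, 4 down) at 500 ng and 15 (9 up, 6 down) at 1500 ng. At 24 h they were 15, 16 and 17. The shares of all genes were then 25.1%, 21.7% and 39.3% at 6 h, and 35.2%, 34.6% and 45.1% at 24 h. At 1500 ng and 24 h Col15a1 ran 10.33, 11.09 and 12.23 in OVA and 9.40, 9.66 and 9.96 in naive lungs. Its difference there was 1.36 (SE 0.23, adjusted p = 6.41e-07), the widest of its 10.

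Enzymes and partners of collagen were compared in the same OVA and naive saline lungs at 24 h, where 30.3% of all genes were called. Of 11 genes of collagen breakdown, 4 rose and 1 fell (median -0.02). Ctsk, which encodes the collagen-degrading protease cathepsin K, averaged 10.87 in OVA and 9.49 in naive lungs, a difference of 1.38 (SE 0.18, adjusted p = 5.34e-10). Timp1, an inhibitor of matrix metalloproteinases, differed by 1.49 (SE 0.30, adjusted p = 3.78e-05). Of 18 biosynthesis genes 1 rose and 6 fell (median -0.07), among them Pcolce2, an enhancer of procollagen processing, -0.59 (SE 0.13, adjusted p = 0.000179). Of 16 TGF-beta pathway genes 1 rose and 7 fell (median -0.11). Ltbp4, which binds latent TGF-beta, differed by -0.65 (SE 0.14, adjusted p = 0.000166). Of 17 other matrix genes 4 rose and 1 fell, and the proteoglycan gene Vcan differed by 1.27 (SE 0.18, adjusted p = 7.2e-09). Of 7 collagen receptor genes 1 rose, the inhibitory receptor gene Lair1, and 0 fell.

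Markers of matrix-making and other cells were counted in that comparison too, against the same 30.3% of all genes. Of 10 fibroblast markers 0 rose and 4 fell, and of 6 smooth muscle and myofibroblast markers 4 rose and 0 fell. Of 8 endothelial markers 4 fell, of 5 measured cartilage markers 3 rose (Chad, Hapln1 and Comp), and of 6 lung epithelial markers 3 fell. All 4 measured markers of alternatively activated macrophages rose. Their part in the collagen differences was not tested.

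The next comparisons asked what TSLP did to the collagen genes relative to buffer. In OVA mice at 24 h the highest dose was followed by higher Col6a1, Col6a2, Col7a1, Col27a1 and Col20a1 and by lower Col4a3, Col12a1, Col13a1 and Col1a2. At 1500 ng, 7 members rose and 8 fell, 38.5% of the 39, and 38.5% of all genes were called. The median difference was -0.04 over the members and 0.01 over all genes. In naive mice at 24 h none of the 3 doses gave a call by limma among the 39, with 0.215% of all genes called at 150 ng, 0.0% at 500 ng and 0.978% at 1500 ng. At an unadjusted p under 0.05, 1 of the 39 differed at each dose.

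Col4a3 in OVA lungs at 24 h ran 10.04, 10.31 and 10.69 after 1500 ng TSLP, against 10.67, 11.07 and 11.35 after buffer. The ranges overlapped at one edge, and the difference was -0.68 (SE 0.15, adjusted p = 0.000203), in 7 of 7 arrays. With the beta-actin covariate it was -0.58 (adjusted p = 0.00168), and against saline -0.40 (adjusted p = 0.0456). Col12a1 ran 6.76, 7.34 and 7.95 after 1500 ng TSLP and 7.60, 8.11 and 8.61 after buffer. These ranges overlapped too, and the difference was -0.76 (SE 0.17, adjusted p = 0.000223). Against saline it no longer passed, -0.42 (adjusted p = 0.0637). Col13a1 did not overlap buffer, -0.31 (SE 0.08, adjusted p = 0.00102), but against saline the difference was -0.02 (adjusted p = 0.879). Col1a2 differed by -0.22 (SE 0.06, adjusted p = 0.00409) and passed against saline too, -0.22 (adjusted p = 0.0064). Col1a1 averaged 12.65 after 1500 ng TSLP and 12.78 after buffer and did not pass. With the mean of all probe sets Col1a1 was called lower, and its other probe set correlated with the chosen one at only 0.58.

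Col7a1, which encodes the anchoring fibrils beneath squamous epithelium, ran 7.82, 8.04 and 8.30 after 1500 ng TSLP in OVA lungs at 24 h and 7.40, 7.59 and 7.80 after buffer. Every TSLP array lay above every buffer array, and the difference was 0.42 (SE 0.09, adjusted p = 0.000106). Col27a1, a fibrillar collagen known from cartilage, differed by 0.41 (SE 0.09, adjusted p = 0.00017). Col20a1, a fibril-associated collagen, differed by 0.33 (SE 0.09, adjusted p = 0.00278). All 3 also passed with the beta-actin covariate and against saline. Col8a1, 0.42 (SE 0.17, adjusted p = 0.0407), and Col6a4, 0.40 (SE 0.16, adjusted p = 0.0455), were called too, but not without the arrays that stood apart, 0.37 (adjusted p = 0.0551) for Col8a1 and 0.30 (adjusted p = 0.165) for Col6a4. Col15a1 ran 10.33, 11.09 and 12.23 after 1500 ng TSLP and 9.85, 10.37 and 12.50 after buffer. It did not pass, 0.48 (SE 0.23, adjusted p = 0.0889), and was called without those arrays, 0.69 (adjusted p = 0.0107).

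Col6a1 and Col6a2 were called higher at every dose in OVA lungs at 24 h. At 150 ng they were the only members called, 5.13% of the 39 against 10.5% of all genes, with differences of 0.20 (SE 0.05, adjusted p = 0.0115) for Col6a1 and 0.26 (SE 0.07, adjusted p = 0.0126) for Col6a2. At 500 ng Col6a2 differed by 0.29 (SE 0.07, adjusted p = 0.00527) and at 1500 ng by 0.38 (SE 0.07, adjusted p = 1.96e-05). It ran 13.13, 13.37 and 13.57 after 150 ng, 13.22, 13.35 and 13.60 after 500 ng and 13.34, 13.46 and 13.62 after 1500 ng, against 12.82, 13.06 and 13.42 after buffer. The TSLP and buffer ranges overlapped at each dose, and differences between doses were not tested. With the compared groups alone neither gene passed at 150 ng (adjusted p = 0.103 for Col6a1 and 0.0921 for Col6a2) or at 500 ng (0.0649 and 0.0665), while both passed at 1500 ng. At 500 ng 5 members rose and 1 fell, 15.4% of the 39 against 11.8% of all genes, and Loxl4 was among them, 0.50 (SE 0.11, adjusted p = 0.00185). Without the arrays that stood apart 3 were called at 500 ng (Loxl4, Col6a2 and Col6a1), and 4.25% of all genes.

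**Figure D3:**
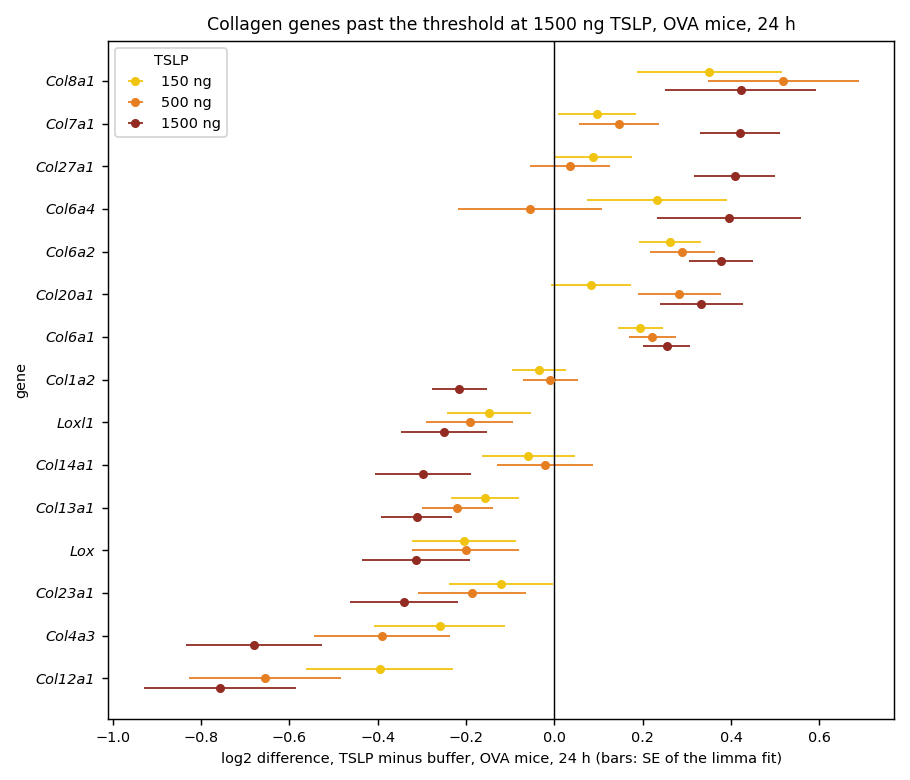
Log2 difference, TSLP minus buffer, in OVA mice at 24 h at 150, 500 and 1500 ng for the 15 collagen genes called at 1500 ng, with bars for the SE of the limma fit. Col27a1, Col1a2 and Col14a1 lie within 0.09 of 0 at the 2 lower doses, while Col6a1 and Col6a2 are above 0 at all 3.

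Cross-linking genes were lower at 1500 ng in OVA lungs at 24 h, Lox with -0.31 (SE 0.12, adjusted p = 0.0329) and Loxl1 with -0.25 (SE 0.10, adjusted p = 0.0339). Neither passed with the beta-actin covariate, -0.21 (adjusted p = 0.169) for Lox and -0.24 (adjusted p = 0.0561) for Loxl1. Neither passed without the arrays that stood apart, -0.25 (adjusted p = 0.088) for Lox and -0.20 (adjusted p = 0.112) for Loxl1. Col14a1 differed by -0.30 (SE 0.11, adjusted p = 0.023). That call was lost with the beta-actin covariate, with the mean of all probe sets and with the compared groups alone. It was kept without the arrays that stood apart. Postn averaged 12.63 after 1500 ng TSLP and 12.67 after buffer and did not pass. The beta-actin difference was 0.32 higher after 1500 ng TSLP, and with it as a covariate 5 members rose and 5 fell (32.7% of all genes called). With saline in place of buffer 6 rose and 3 fell, 23.1% of the 39 against 29.2% of all genes. The rises against saline were Col27a1, Col7a1, Col20a1, Col16a1, Col6a2 and Col6a1, and the falls were Col4a3, Col14a1 and Col1a2.

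Beside these changes, and against 38.5% of all genes called, 6 of 10 fibroblast markers fell in OVA lungs after 1500 ng TSLP at 24 h and 0 rose, and 6 of 8 endothelial markers fell and 0 rose. Both measured fat markers fell (Adipoq and Fabp4), with a list mean of 8.53 after 1500 ng TSLP and 10.69 after buffer, and 2 of 4 mesothelial markers rose (Upk1b and Msln). Dcn, which encodes the fibril-binding proteoglycan decorin and is a fibroblast marker, differed by -1.33 (SE 0.20, adjusted p = 9.86e-08). Flt1, an endothelial receptor gene, differed by -0.69 (SE 0.13, adjusted p = 5.61e-06). Of 18 biosynthesis genes 2 rose, Colgalt1, a collagen galactosyltransferase, 0.42 (SE 0.06, adjusted p = 1.26e-07), and Bmp1, the procollagen C-proteinase, 0.33 (SE 0.08, adjusted p = 0.000426). Another 5 fell, among them P4ha1, a prolyl hydroxylase subunit, -0.39 (SE 0.11, adjusted p = 0.00179). The part of these cells in the collagen changes was not tested.

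At 6 h the TSLP comparisons moved with the beta-actin difference. In OVA lungs at 1500 ng 9 members rose and 16 fell, 64.1% of the 39 against 60.7% of all genes, while the beta-actin difference was lower than after buffer (-1.31). The ranges of the beta-actin difference did not overlap, 1.06 to 1.49 after TSLP and 2.26 to 2.96 after buffer. The covariate therefore cannot separate TSLP from RNA quality here, and the same holds for other 6 h contrasts of these groups. With the covariate 1 rose and 1 fell (7.72% of all genes called). Those were Postn, 0.25 (adjusted p = 0.0367), and Col7a1, -0.54 (adjusted p = 0.00252). Postn ran 12.50, 12.66 and 12.77 after 1500 ng TSLP, against 11.82, 12.14 and 12.34 after buffer. The groups did not overlap, and the difference without the covariate was 0.57 (SE 0.07, adjusted p = 5.1e-13). Col7a1 ran 7.52, 7.56 and 8.05 after 1500 ng TSLP, against 8.14, 8.35 and 8.59 after buffer. These groups did not overlap either, with -0.71 (SE 0.09, adjusted p = 6.04e-12).

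Cell markers moved in the same 6 h comparison, in which 60.7% of all genes were called. Of 10 fibroblast markers 6 rose and 0 fell, with a list mean of 11.54 after 1500 ng TSLP and 11.10 after buffer. Of 6 smooth muscle and myofibroblast markers 4 rose and 0 fell. Of 8 endothelial markers 7 rose and 1 fell, with a list mean of 11.61 after 1500 ng TSLP and 11.16 after buffer. All 4 mesothelial markers fell, with a list mean of 10.16 after 1500 ng TSLP and 10.74 after buffer. Their part in the collagen changes was not tested.

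**Figure D4:**
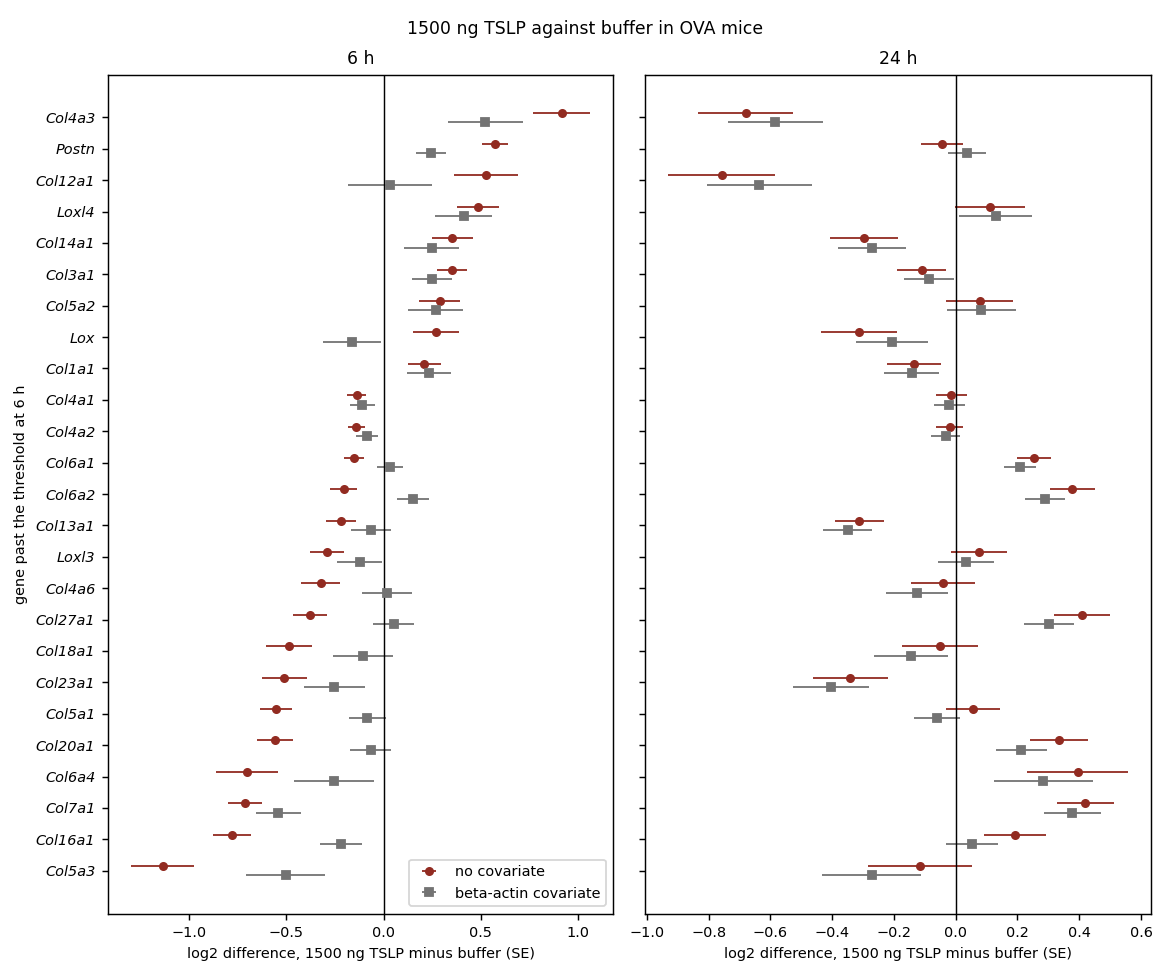
Log2 difference, 1500 ng TSLP minus buffer in OVA mice at 6 h (left) and 24 h (right), for the 25 collagen genes called at 6 h, without (red circles) and with (grey squares) the beta-actin covariate; bars are SE. At 6 h most grey squares lie nearer 0 than the red circles, and Col4a3, Col12a1 and Col7a1 lie on opposite sides of 0 at the 2 times.

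Several of the 6 h changes ran opposite to those at 24 h. Col4a3 ran 10.46, 10.89 and 11.33 at 6 h in OVA lungs after 1500 ng TSLP, against 9.73, 9.99 and 10.46 after buffer. The groups did not overlap, its difference was 0.92 (SE 0.15, adjusted p = 5.29e-08) at 6 h, and the gene fell at 24 h. In a contrast added after the data were seen, the TSLP effect in OVA lungs differed between 24 h and 6 h for 23 members, 13 higher and 10 lower at 24 h. That is 59.0% of the 39, against 60.2% of all genes. Col7a1 differed by 1.13 (SE 0.13, adjusted p = 9e-14) and Col4a3 by -1.60 (SE 0.21, adjusted p = 1.27e-10). With the beta-actin covariate 4 were called (23.4% of all genes), Col7a1, 0.92 (adjusted p = 7.83e-06), Col4a3, -1.11 (adjusted p = 0.001), Col14a1 and Col1a2.

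The remaining 6 h comparisons also lost most calls with the covariate. At 500 ng in OVA lungs 8 rose and 8 fell, 41.0% of the 39 against 41.0% of all genes. The beta-actin difference, 1.22 to 2.22 after this dose, again did not overlap that after buffer, 2.26 to 2.96. With the covariate Loxl4, 0.48 (adjusted p = 0.01), and Col7a1, -0.48 (adjusted p = 0.00067), were called, and 7.99% of all genes. At 150 ng in OVA lungs 0 of 39 were called by limma, against 0.163% of all genes, and 5 had an unadjusted p under 0.05. In naive lungs at 6 h 9 members were called at 150 ng (27.2% of all genes), 19 at 500 ng (42.1%) and 6 at 1500 ng (15.3%). With the covariate the counts were 1, 5 and 2 (12.1%, 15.4% and 4.66% of all genes). At 1500 ng those were Col17a1, -0.93 (adjusted p = 0.00776), and Loxl1, -0.40 (adjusted p = 0.0151). Against saline Col17a1 gave -0.22 (adjusted p = 0.382). With saline as the reference, 1500 ng TSLP at 6 h gave 26 calls in OVA lungs (62.1% of all genes) and 19 in naive lungs (42.8%), and at 24 h it gave none in naive lungs by limma (0.793%).

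Whether TSLP acted differently in OVA and naive lungs was tested as an interaction at 1500 ng. At 6 h 10 members passed, 6 with a higher and 4 with a lower effect in OVA lungs, 25.6% of the 39 against 31.8% of all genes. With the covariate 3 passed (7.17% of all genes called), Loxl4, 0.57 (adjusted p = 0.0274), Col3a1, 0.41 (adjusted p = 0.022), and Col7a1, -0.61 (adjusted p = 0.00192). At 24 h 2 members passed, 5.13% of the 39 against 4.42% of all genes. Col7a1 ran 7.51, 7.62 and 8.01 after 1500 ng TSLP in naive lungs and 7.49, 7.68 and 8.10 after buffer, and its effect in OVA minus naive lungs was 0.45 (SE 0.13, adjusted p = 0.0258). Col4a3 ran 10.57, 11.20 and 11.49 after 1500 ng TSLP in naive lungs and 10.21, 11.16 and 11.54 after buffer. Its effect in OVA minus naive lungs was -0.70 (SE 0.22, adjusted p = 0.0428), which did not pass without the arrays that stood apart, -0.64 (adjusted p = 0.0831).

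Buffer alone gave few calls against saline. In naive lungs at 6 h 1 member was called, Col17a1, 0.68 (SE 0.22, adjusted p = 0.0215), against 14.9% of all genes, and without the arrays with gullet keratins none was called. In OVA lungs at 24 h 1 was called, Col13a1, 0.29 (SE 0.08, adjusted p = 0.0478), against 0.882% of all genes, and without the arrays that stood apart none was. In naive lungs at 24 h (0.00741% of all genes) and OVA lungs at 6 h (0.356%) none was called by limma, and 2 had an unadjusted p under 0.05 in naive lungs and 3 in OVA lungs.

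Saline lungs taken at 24 h differed from those taken at 6 h in many members. In OVA lungs 12 rose and 12 fell, 61.5% of the 39 against 61.0% of all genes. In naive lungs 9 rose and 13 fell, 56.4% of the 39 against 61.2% of all genes. The beta-actin difference was lower at 24 h in OVA (-1.18) and in naive (-1.04) lungs. In OVA lungs its ranges did not overlap, 2.18 to 2.72 at 6 h and 1.11 to 1.64 at 24 h, and in naive lungs they met at 1.91. The covariate therefore cannot separate time from RNA quality here. With the covariate 8 rose and 3 fell in OVA lungs (23.6% of all genes called), and 3 rose and 3 fell in naive lungs (27.0%). With the covariate Col1a1 was higher at 24 h in both, 0.52 (adjusted p = 0.000482) in OVA and 0.46 (adjusted p = 0.000655) in naive lungs. Col7a1 was lower in both with the covariate, -0.46 (adjusted p = 0.00219) in OVA and -0.32 (adjusted p = 0.0169) in naive lungs.

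Across the 24 planned comparisons Col4a3 and Col6a2 were called most often, 12 times each, followed by Col6a1 with 11 and Col23a1 with 10. All 10 calls of Col23a1 were falls. Col22a1, Col2a1, Col8a2 and Col9a1 were never called. Their mean levels lay at the 8.9, 8.2, 10.2 and 0.9 percentiles of all genes. Without detection calls, whether they were expressed cannot be told. The comparisons share groups and are not independent. The share of all genes called ran from 0.0% to 61.2% over the 24, and how often other genes were called was not counted. The 20 group means of Col4a3 spanned 1.40 log2 units, and the median SD within groups was 0.28. Those of Col4a1 spanned 0.24, with a median SD of 0.07.

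Chains that share a trimer or a fibre were then compared animal by animal, after the group means had been removed. Over all arrays (77 at 6 h and 72 at 24 h), 12 pairs were examined, with p from 100000 permutations adjusted over the 12. Col6a1 and Col6a2 followed each other closely (Pearson r = 0.94, Spearman rho = 0.93, both adjusted permutation p = 1e-05, the smallest these permutations can give). Col4a1 and Col4a2, whose promoter windows overlap, had r = 0.93 and rho = 0.87 with the same permutation p. Leaving out the 2 most distant arrays gave 0.93 for Col6a1 with Col6a2 and 0.91 for Col4a1 with Col4a2. Within times the Col6a1 and Col6a2 values were 0.94 at 6 h and 0.93 at 24 h, and those of Col4a1 and Col4a2 were 0.95 and 0.92.

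**Figure D5:**
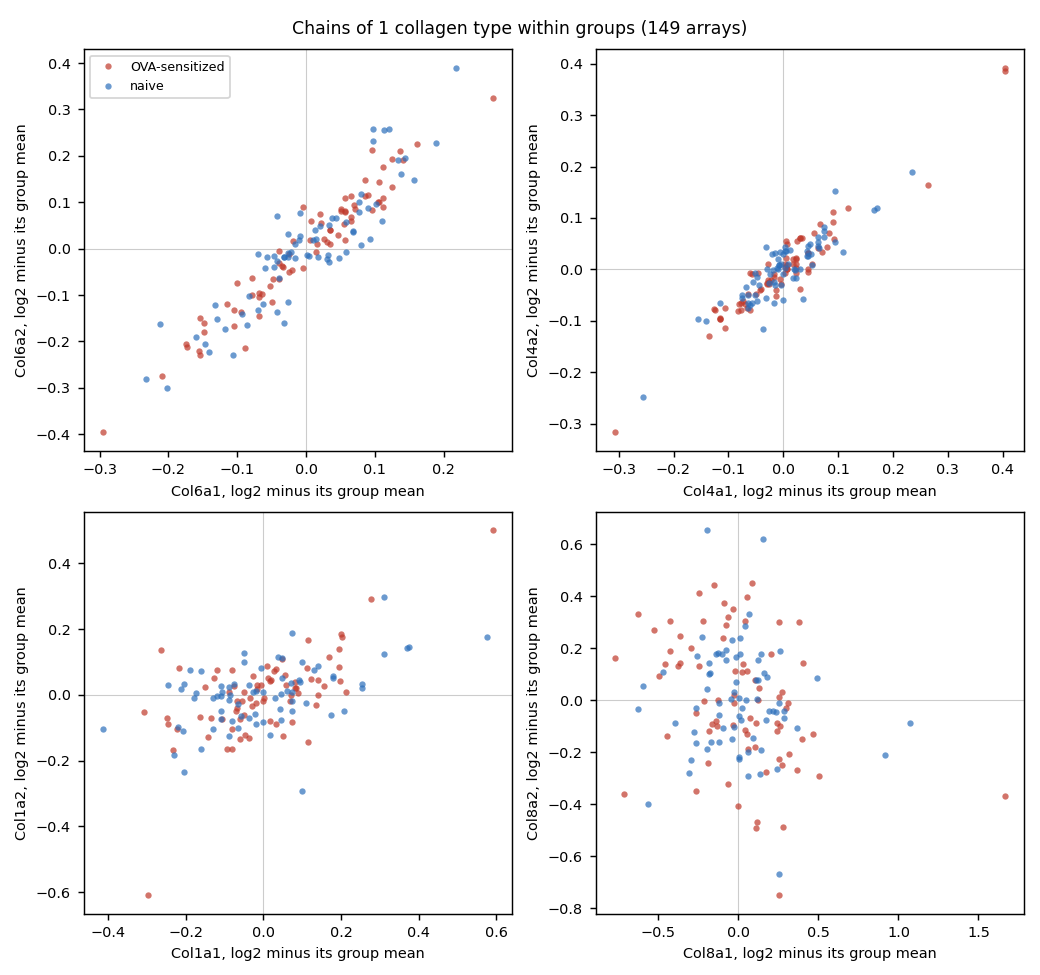
Deviation from the group mean in log2 units for 4 pairs of chains in every array (OVA red, naive blue). Points fall along a line for Col6a1 with Col6a2 and Col4a1 with Col4a2, scatter more for Col1a1 with Col1a2, and show a weak negative relation for Col8a1 with Col8a2.

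The other pairs were looser. Col3a1 and Col5a2, of the same mixed fibres, had r = 0.88 and rho = 0.86, and Col1a1 and Col3a1 had r = 0.81 and rho = 0.77. Col1a1 and Col1a2, which make up collagen I together, had r = 0.56 and rho = 0.47. The other Col1a1 probe set correlated with the chosen one at only 0.58, and those of Col1a2 with their chosen one at 0.55 and 0.29. These probe set values were taken with group differences left in, unlike the pair correlations. Col4a3 correlated with Col4a5 at r = 0.73 (rho = 0.72), with Col4a4 at r = 0.56 (rho = 0.58), and Col6a1 with Col6a3 at r = 0.66 (rho = 0.65). Col1a1 with Postn gave r = 0.52 (rho = 0.47) and with Lox r = 0.33 (rho = 0.24). Without the arrays that stood apart, Col1a1 with Lox gave 0.19. Col2a1 and Col9a1, both cartilage collagens, had r = 0.27 (rho = 0.35), 0.11 at 6 h and 0.48 at 24 h. Col8a1 and Col8a2 had r = -0.24 (rho = -0.24), -0.33 at 6 h and -0.11 at 24 h. Signals of Col2a1, Col9a1 and Col8a2 were low, at the 8.2, 0.9 and 10.2 percentiles of all genes, which limits what these pairs can show. The adjusted permutation p of r was 1e-05 for all pairs but Col1a1 with Lox (3.6e-05), Col2a1 with Col9a1 (0.000905) and Col8a1 with Col8a2 (0.00321).

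Within times, Col4a3 with Col4a4 gave r = 0.48 at 6 h and 0.66 at 24 h, and with Col4a5 0.66 at 6 h and 0.81 at 24 h. Col1a1 with Col1a2 gave 0.57 at 6 h and 0.54 at 24 h, and 0.49 over all arrays without the 2 most distant. Col3a1 with Col5a2 gave 0.89 at 6 h and 0.87 at 24 h, Col6a1 with Col6a3 0.70 and 0.60, Col1a1 with Postn 0.54 and 0.51, and Col1a1 with Lox 0.27 and 0.44. All arrays share one normalization.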

How the data were processed

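Per the submitters' processing notes, the authors used RMA, and the deposited matrix holds log2 values; no source used here names the RMA version or a probe set filter. RNA had integrity numbers above 6 and 100 ng was labelled with a 3' kit, per the labels' protocols. With no read depth or detection calls, precision rests on the number of arrays, 6 to 8 per group. Of 26166 probe sets, 22892 named 1 gene through the platform table, 260 several and 3014 none, and the brightest probe set stood for each of 13494 genes. Groups were taken from the labels.

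Limma 3.58.1 in R 4.3.3 was fitted with 1 mean per group, eBayes and Benjamini-Hochberg adjustment at 0.05, and the code was tested on simulated data. Tables were made with Python 3.11.15. Genes named were all members, the up to 6 largest rises and falls per comparison, 18 fixed collagen genes, and up to 4 of each other list. The members, lists and tests were chosen with earlier results of these data known. The labels do not say whether animals were handled in batches. Replicate numbers are animal numbers in the labels and did not pair samples: the mean correlation of deviations was 0.003 for same-numbered and 0.003 for different-numbered arrays. Alternatives were the mean of probe sets, a filter on the dimmest 40% of genes, quantile normalization, a replicate block, the compared groups alone, the beta-actin covariate, leaving out arrays, and saline as the reference. The arrays that stood apart and the contrasts in TSLP groups and between times were chosen after seeing the data.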

Additional observations from a re-analysis of the deposited data

Results flagged for a closer look

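Of 360 sets of 1 gene in 1 group (18 collagen genes in 20 groups), 45 held 1 array farther from the others than Dixon's 95% limit for the group's size allows. Chance alone flags about 1 in 20 such sets, and neighbouring genes on one array are not independent. Replicate 3 of the group OVA buffer 6 h stood high in Col1a1 (12.96), Col4a1 (14.01) and Col18a1 (12.63). Replicate 1 of the group naive saline 24 h stood high in Col1a1 (12.98), Col1a2 (13.29), Col3a1 (13.29), Col5a2 (11.86), Col4a1 (13.87), Col4a2 (13.83) and Lox (12.06) and low in Col17a1 (6.33). Replicate 2 of the group OVA buffer 24 h stood high in Col4a1 (13.99), Col4a2 (13.96), Col15a1 (12.49) and Lox (11.85). Col17a1 stood high in arrays that carried the gullet keratins, at 8.68 (OVA buffer 6 h replicate 7), 8.95 (naive 150 ng TSLP 6 h replicate 5), 8.58 (OVA 1500 ng TSLP 6 h replicate 7) and 8.30 (naive buffer 24 h replicate 8). Col1a1 stood low at 12.27 in OVA 1500 ng TSLP 6 h replicate 7. Col3a1 stood low at 12.27 in OVA buffer 6 h replicate 6 and high at 13.21 in naive 500 ng TSLP 6 h replicate 7. Col4a1 stood low at 13.32 in naive buffer 6 h replicate 4. Col4a2 stood low at 13.52 in naive buffer 24 h replicate 4. Col4a3 stood high at 11.21 in naive buffer 6 h replicate 6, low at 10.20 in naive buffer 24 h replicate 5 and low at 9.76 in OVA 500 ng TSLP 24 h replicate 8. Col6a3 stood low at 11.44 in OVA buffer 6 h replicate 6, high at 11.97 in naive 150 ng TSLP 6 h replicate 6 and high at 12.06 in OVA 150 ng TSLP 6 h replicate 1. Col15a1 stood high at 11.39 in naive 500 ng TSLP 6 h replicate 7. Col18a1 stood high at 11.03 in OVA 1500 ng TSLP 24 h replicate 6. Col2a1 stood high at 7.84 in naive 500 ng TSLP 6 h replicate 2, high at 7.27 in naive 1500 ng TSLP 6 h replicate 1, high at 7.43 in OVA saline 24 h replicate 8, high at 7.55 in OVA buffer 24 h replicate 3 and high at 7.91 in naive 150 ng TSLP 24 h replicate 8. Col14a1 stood low at 9.63 in OVA saline 6 h replicate 8, high at 11.18 in OVA saline 24 h replicate 8 and low at 10.15 in naive 500 ng TSLP 24 h replicate 4. Lox stood high at 11.54 in naive 150 ng TSLP 24 h replicate 4. Loxl4 stood high at 8.51 in OVA saline 6 h replicate 4 and high at 8.75 in OVA 150 ng TSLP 6 h replicate 7. Postn stood high at 12.61 in naive saline 6 h replicate 8 and low at 12.43 in OVA 500 ng TSLP 24 h replicate 8.

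The effect of 1500 ng TSLP against buffer differed between OVA and naive lungs by the limma interaction test for 10 collagen genes at 6 h. The log2 difference, OVA minus naive, was positive for Col4a3 (0.86), Col17a1 (0.80), Loxl4 (0.61), Col3a1 (0.47), Col5a2 (0.44) and Postn (0.43). It was negative for Col20a1 (-0.44), Col23a1 (-0.47), Col5a3 (-0.61) and Col7a1 (-0.71). The beta-actin difference moved with these groups at 6 h, and 3 genes passed with it as a covariate (7.17% of all genes called). Without the arrays with gullet keratins, Col17a1, Col5a2, Col23a1 and Col5a3 were no longer called at 6 h (20.3% of all genes called). At 24 h the effect differed for Col7a1 (0.45) and Col4a3 (-0.70).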

How the results depend on the processing

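Counts below are collagen genes called, with the reported count in square brackets, and the cause of each change was not tested. Percentages in round brackets are shares of all genes called under the same setting. With only the compared groups fitted, which leaves fewer samples to estimate the spread, OVA against naive gave 3 [9] (12.4%) after saline at 6 h, 5 [13] (17.3%) after buffer at 6 h and 4 [7] (5.77%) at 24 h. TSLP against buffer then gave 3 [9] (8.72%) at 150 ng in naive lungs at 6 h, 0 [2] (0.119%) at 150 ng in OVA lungs at 24 h, 9 [16] (33.9%) and 2 [6] (2.65%) at 500 ng in OVA lungs at 6 and 24 h, and 0 [6] (0.148%) at 1500 ng in naive lungs at 6 h. Buffer against saline gave 0 [1] (0.0%) in naive lungs at 6 h and 0 [1] (0.0%) in OVA lungs at 24 h, and the 6 h interaction 6 [10] (23.5%). The beta-actin covariate gave 1 [9] (12.1%), 5 [19] (15.4%) and 2 [6] (4.66%) at 150, 500 and 1500 ng in naive lungs at 6 h and 2 [16] (7.99%) and 2 [25] (7.72%) at 500 and 1500 ng in OVA lungs at 6 h. For 24 h against 6 h it gave 11 [24] (23.6%) in OVA and 6 [22] (27.0%) in naive lungs, and for the 6 h interaction 3 [10] (7.17%). For OVA against naive lungs under TSLP at 6 h it gave 11 [17] (25.1%) at 150 ng and 7 [11] (21.7%) at 500 ng. The mean of all probe sets gave 4 [9] (22.5%) at 150 ng in naive lungs at 6 h, 2 [1] (11.5%) for buffer against saline in naive lungs at 6 h and 1 [2] (3.17%) for the 24 h interaction. Quantile normalization gave 5 [9] (25.0%), 2 [1] (16.0%) and, for buffer against saline in OVA lungs at 24 h, 0 [1] (0.808%). Without the gullet arrays 150 ng in naive lungs at 6 h gave 15 [9] (36.6%), buffer against saline there 0 [1] (9.16%) and the 6 h interaction 6 [10] (20.3%). Without the dimmest 40% of genes, which also removes members, 500 ng at 6 h gave 10 [16] (49.0%) in OVA and 12 [19] (51.3%) in naive lungs, buffer against saline in OVA lungs at 24 h 0 [1] (0.63%), and the interactions 5 [10] (38.9%) at 6 h and 1 [2] (6.79%) at 24 h. With saline as the reference 1500 ng gave 9 [15] (29.2%) in OVA lungs at 24 h and 19 [6] (42.8%) in naive lungs at 6 h. Without the arrays that stood apart, chosen after seeing the data, 500 ng in OVA lungs at 24 h gave 3 [6] (4.25%), buffer against saline 0 [1] (0.0%) in OVA lungs at 24 h and 3 [1] (15.2%) in naive lungs at 6 h, and the 24 h interaction 1 [2] (3.73%).

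Changes of sign were seen with the beta-actin covariate for Col6a1 (0.034) and Lox (-0.164) at 1500 ng in OVA lungs at 6 h and for Col6a1 at 24 h against 6 h in OVA lungs (0.002), and with the mean of probe sets for Col1a2 at 24 h against 6 h in naive lungs (0.128). None of these 4 passed the threshold there. With the replicate block all 24 counts were within 1.5 times the reported ones, and 175 of 177 single-gene calls were kept. Replicate numbers did not pair samples, so that block could change little. With the beta-actin covariate 92 of the 177 calls were kept, and with the compared groups alone 117. All 12 chain correlations kept their sign and side of the threshold. The number of arrays limits precision: the median residual SD was 0.16 log2 units.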
